A study of Mus musculus with 12 samples.

Results

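Blastocysts cultured in Ca-free medium were compared directly with blastocysts treated by 20 pulses. Both are treatments of mouse embryos in a study that asked, per its title, whether gene expression and development to term depend on the oscillations of Ca2+ in the egg after fertilisation. The comparison used the 4 arrays titled for Ca-free medium and the 4 titled for 20 pulses, 8 of the 12 arrays of the series. The 4 arrays of control blastocysts took no part in any test of gene expression, and their levels are given only as a description. A source label calls the pulses Ca2+ pulses. No source used here gives the form of a pulse, the time spent in Ca-free medium, the stage of either treatment, the mouse strain or the number of embryos behind an array. It is also not stated that replicates came from separate collections, and each p-value therefore reflects the spread among these arrays, which may be technical.

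At fertilisation the sperm sets off repeated rises of free Ca2+ in the egg, which drive exit from meiosis, release of cortical granules and the start of development. Release from internal stores starts these rises and entry from the medium keeps them going, and calmodulin-dependent kinase and calcineurin with its NFAT targets are among the proteins that read them. The blastocyst that forms days later holds an outer epithelium, the trophectoderm, and an inner cell mass that divides into epiblast and primitive endoderm. Trophectoderm depends on Cdx2, Eomes, Gata3, Gata2 and AP-2 factors, epiblast on Nanog, Sox2 and Pou5f1 (Oct4), and primitive endoderm on Gata6, Gata4 and Sox17.

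RNA of whole blastocysts was read on expression arrays, so fewer cells of a type and less RNA per cell cannot be told apart. The arrays carried 45037 probe sets besides the array controls, and those whose signal averaged 100 or more across the 8 arrays were tested, 27216 probe sets of 13359 genes. Signals below are on an intensity scale on which the 2% trimmed mean of every array is 500, and a log2 change is that of the signal plus 32, Ca-free medium minus 20 pulses. Folds are taken from these log2 changes. For dim genes they can be well below the ratio of the mean signals. Defining markers of the blastocyst were bright in both groups, with Cdx2 at 4981 ± 437 in Ca-free medium and 4787 ± 79.4 after 20 pulses (mean ± SD, n = 4) and Krt18, an epithelial keratin, at 10460 ± 536 and 10490 ± 313. With limma in this main scaling, 2520 probe sets (9.26%) were higher in Ca-free medium and 5671 (20.8%) lower at an adjusted p under 0.05. This split followed the scaling of the arrays. After quantile normalization 1411 (5.18%) were higher and 1170 (4.3%) lower. Scaling to the array median gave 8550 (31.4%) higher and 796 (2.92%) lower, and scaling to 9 hybridization control probe sets gave 106 (0.389%) higher and 18905 (69.5%) lower. The higher share among called probe sets was thus 30.8%, 54.7%, 91.5% and 0.558% under the 4 scalings. Over all probe sets the median change was -0.16 in the main scaling, -0.01 after quantile normalization, 0.18 after median scaling and -0.49 on the hybridization controls. In the main scaling the median change moved from -0.34 in the dimmest of 10 equal sets of probe sets to 0.18 in the brightest, whereas after quantile normalization it stayed between -0.04 and 0.01.

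**Figure D1:**
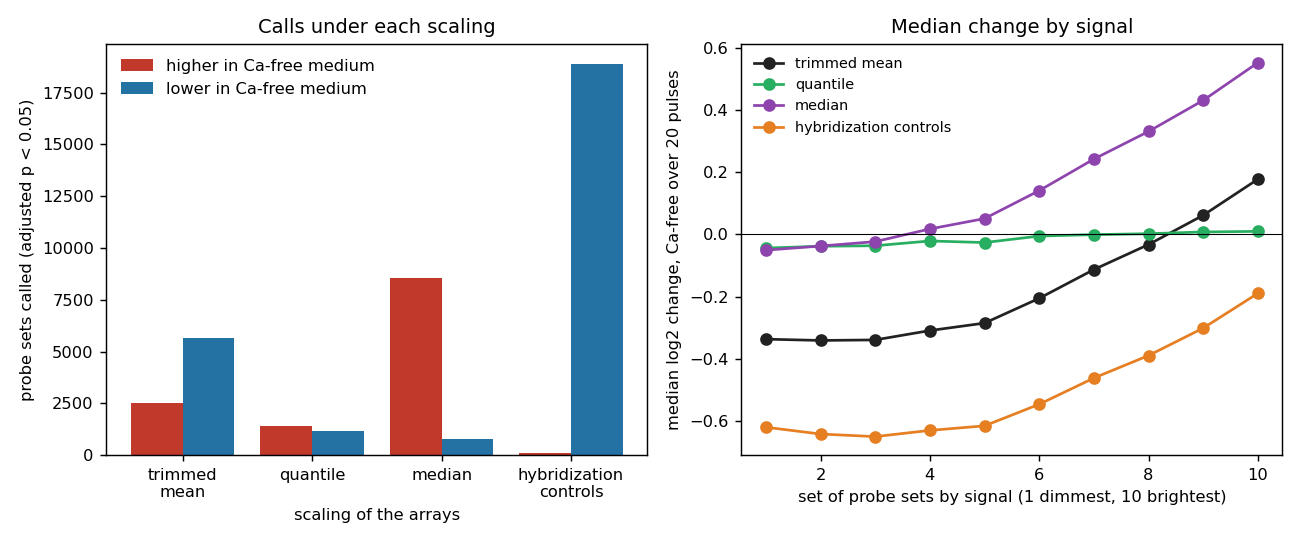
Left: probe sets called higher (red) or lower (blue) in Ca-free medium than after 20 pulses, of 27216 tested, under each of 4 scalings of the arrays (vertical axis, number of probe sets at limma adjusted p under 0.05). Right: median log2 change in 10 sets of probe sets ordered by mean signal, 1 line per scaling. The split of calls runs from 8550 higher against 796 lower to 106 higher against 18905 lower, and only the quantile line stays near 0 from dim to bright probe sets.

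Probe sets called in the same direction under all 4 scalings numbered 106 higher (0.389%) and 513 lower (1.88%), and these lead the account below. The 106 were all those called higher on the hybridization controls, and the 513 lay within the 796 lower with median scaling. The sizes of the 2 sets thus also depended on the scalings. Changes in the higher set ran from 0.58 to 1.77, with a median of 0.86. In the lower set they ran from -2.29 to -0.60, with a median of -0.87. The groups did not overlap in 95 of the 106 and in 510 of the 513, and 24 and 125 of them changed at least 2-fold. These probe sets were chosen by calls on the same 8 arrays, which favours groups that do not overlap. The counts are thus no further support for the calls, and the shares over all probe sets are not given here. Their median signals, 287 and 279, lay below the 320 of all probe sets tested. Of the genes involved, 12 in the higher and 25 in the lower set had another probe set called the opposite way. With any 1 of the 8 arrays left out in turn, 45 of the 106 and 150 of the 513 kept their call under all 4 scalings throughout. The lowest counts were 70 higher without Ca-free array 4 and 213 lower without pulses array 1, and the lower count also fell to between 242 and 340 without Ca-free array 1, 2 or 4 or pulses array 2 or 3.

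Measures of the arrays themselves also separated the groups. The deposited median signal was 38.3 to 39.2 in Ca-free medium and 47.4 to 53.7 after 20 pulses. The 3' to 5' log2 signal ratio was 0.85 ± 0.07 against 0.64 ± 0.08 for Actb and 1.94 ± 0.41 against 2.67 ± 0.19 for Gapdh. 18S rRNA was 1.62 times and the hybridization controls 1.29 times brighter in Ca-free medium. In each of these 4 measures the groups did not overlap (two-sided exact permutation p = 0.02857, as small as 4 against 4 can give, and 0.02857 after adjustment over the 4). The first principal component (46.2% of the variance) separated the groups, and the second (16.4%) set Ca-free arrays 1 and 4 apart from arrays 2 and 3. The part of these measures in the gene results was not tested, apart from the scalings and the fits with Ca-free arrays 1 and 4 or 2 and 3 alone.

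The largest decreases in Ca-free medium were led by Arl14, a small GTPase of the ADP-ribosylation factor-like family. Its signals were 106, 52.6, 68.8 and 95.2 on the Ca-free arrays and 534, 544, 543 and 429 after 20 pulses. No Ca-free array came near any pulses array, and the control mean of 338 ± 26.3 lay between the groups. The mean was 80.6 ± 24.3 in Ca-free medium against 512.5 ± 56.0 after 20 pulses, 4.9-fold lower, with a log2 change of -2.29 (SE 0.165, adjusted p = 0.000148). Across the 4 scalings the change of Arl14 ran from -1.99 on the array medians to -2.60 on the hybridization controls. Gkn3, a gastrokine secreted by the stomach lining, had the smallest adjusted p of the genes named here. It read 303, 285, 272 and 351 on the Ca-free arrays against 1019, 1032, 960 and 930 after 20 pulses. This was 3.05-fold lower (log2 change -1.61, SE 0.098, adjusted p = 4.59e-05), although the second probe set of Gkn3 changed by -0.17 and did not pass.

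Genes tied to Ca2+ signalling and to the actin cytoskeleton were among the 14 largest decreases. Nfatc2 encodes a transcription factor that moves to the nucleus once calcineurin has removed its phosphates. Its brightest probe set read 148, 144, 74.3 and 106 in Ca-free medium and 478, 427, 358 and 282 after 20 pulses, 2.81-fold lower (log2 change -1.49, adjusted p = 0.00232). The controls, at 380 ± 59.3, were at the level of the pulses arrays, at 386 ± 85.0, and the other two Nfatc2 probe sets (-0.37 and -0.40) did not pass. Gnaq encodes the G protein subunit that activates phospholipase C beta and so the release of stored Ca2+. A probe set of Gnaq read 200, 206, 70.5 and 144 against 401, 390, 534 and 344 (log2 change -1.32, adjusted p = 0.00484). Of its other 5 probe sets, 1 was called lower (-0.59) and the rest changed by -0.19 to 0.10 without passing. Tmsb4x encodes thymosin beta 4, which binds monomeric actin. It read 663, 285, 348 and 443 in Ca-free medium and 876, 1212, 932 and 1249 after 20 pulses (log2 change -1.28, adjusted p = 0.00367). All Ca-free arrays lay below all pulses arrays, and the control mean was 686. Kif17, a kinesin motor, read 175, 134, 139 and 65.8 against 434, 330, 382 and 262 (log2 change -1.29, adjusted p = 0.00411), and its second probe set did not pass (-0.03, adjusted p = 0.869).

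Several of the other large decreases were genes known from the male germ line, all with dim signals. Boll, a germ cell RNA-binding protein, was at 96.9 ± 34.8 against 355 ± 93.4 (log2 change -1.60), with the control mean at 356. Cfap61, a protein of cilia and sperm tails, was at 85.9 ± 61.0 against 298 ± 62.5 (-1.62), and Spaca3, an acrosomal protein, at 84.0 ± 27.7 against 275 ± 109 (-1.35). In a list of 12 tested sperm markers Cfap61, Boll and Akap4 (-0.83) were called lower and none higher in the main scaling, beside 18.3% lower and 11.1% higher over all genes by their brightest probe set. The list was dim, with a median signal of 190, and dim probe sets were more often lower in this scaling. In the sets of probe sets with median signals of 175 and 217, 807 of 2721 and 899 of 2722 were lower. Over all probe sets the share was 20.8%. The protamines Prm1 (-0.42) and Prm2 (0.21) and the transition protein Tnp1 (-0.25) did not pass. The summed signal of the sperm list was 2156 to 2649 on the Ca-free arrays, 2696 to 3840 after 20 pulses and 3179 to 3872 in the controls. The part of such RNA in these decreases was not tested. Gsdma2, a gasdermin, read 16.7, 37.2, 52.0 and 12.1 against 283, 151, 246 and 194 (log2 change -2.04). Gfra4, a receptor of the GDNF family, changed by -1.48, and Aldh3b2, an aldehyde dehydrogenase, by -1.27. The uncharacterised D630023F18Rik and 4930447F24Rik were each lower on 2 probe sets, by -1.58 and -0.73 and by -1.44 and -1.33. The control mean of D630023F18Rik, 128.5 against 98.8 in Ca-free medium and 347 after 20 pulses, was the only one of the 14 that lay nearer to Ca-free medium.

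Among the 14 largest increases was Tnfrsf12a (Fn14), the receptor for the cytokine TWEAK. It read 410, 484, 303 and 569 in Ca-free medium against 152, 135, 164 and 203 after 20 pulses, 2.39-fold higher (log2 change 1.25, SE 0.176, adjusted p = 0.00263). The lowest Ca-free array was above the highest pulses array, but a second probe set of the gene (0.08, adjusted p = 0.652) did not pass. Cthrc1, a secreted collagen triple helix repeat protein, read 959, 1239, 1331 and 899 against 571, 463, 548 and 486 (log2 change 1.04, adjusted p = 0.0021), with a control mean of 798 between the groups. Ehd1, an ATPase of endocytic recycling, read 831, 786, 820 and 929 against 470, 218, 540 and 459 (log2 change 1.01, adjusted p = 0.00765), and 2 of its other 3 probe sets were also called higher (0.24 and 0.32). Each of these genes had all Ca-free arrays above all pulses arrays, as the choice of the 14 required.

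The 2 largest of the named increases came from dim probe sets. Coa3, which helps to assemble cytochrome c oxidase, read 256, 156, 209 and 311 against 34.9, 28.1, 81.0 and 65.6 (log2 change 1.66, adjusted p = 0.00313). The brighter Coa3 probe set, at 4209 to 4938 against 3922 to 4128, was higher by 0.19 (adjusted p = 0.038). Phrf1, a PHD and RING finger protein with 1 probe set, read 368, 446, 470 and 382 against 96.1, 84.8, 112.5 and 184 (log2 change 1.60, adjusted p = 0.00162). The remaining named increases were Nt5c3b (1.42), a nucleotidase, Sypl (1.31), a vesicle membrane protein, the splicing factors Dhx38 (1.29) and Aar2 (1.06), Prr18 (1.08), Ublcp1 (1.04), a phosphatase of the nuclear proteasome, Trnp1 (0.97), Zmynd19 (0.96) and Phf14 (0.96). Of the 14 genes, 11 had other probe sets tested, and in 5 of them at least 1 other was called higher, in 6 none. For the 14 decreases, 7 had other probe sets, with another called lower in 3 of them and no other in 4. All 28 calls held in the main scaling with any 1 array left out. Under all 4 scalings 13 of the 14 increases and 7 of the 14 decreases held. With Ca-free arrays 2 and 3 alone, Zmynd19 (0.83) and Phf14 (0.86) no longer passed. On the log2 scale the control mean lay nearer to 20 pulses in 12 of the increases and 13 of the decreases. The share over all probe sets is not given here, so these counts do not set the 28 genes apart. The median signals of the control arrays also lay in the range of the pulses arrays.

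**Figure D2:**
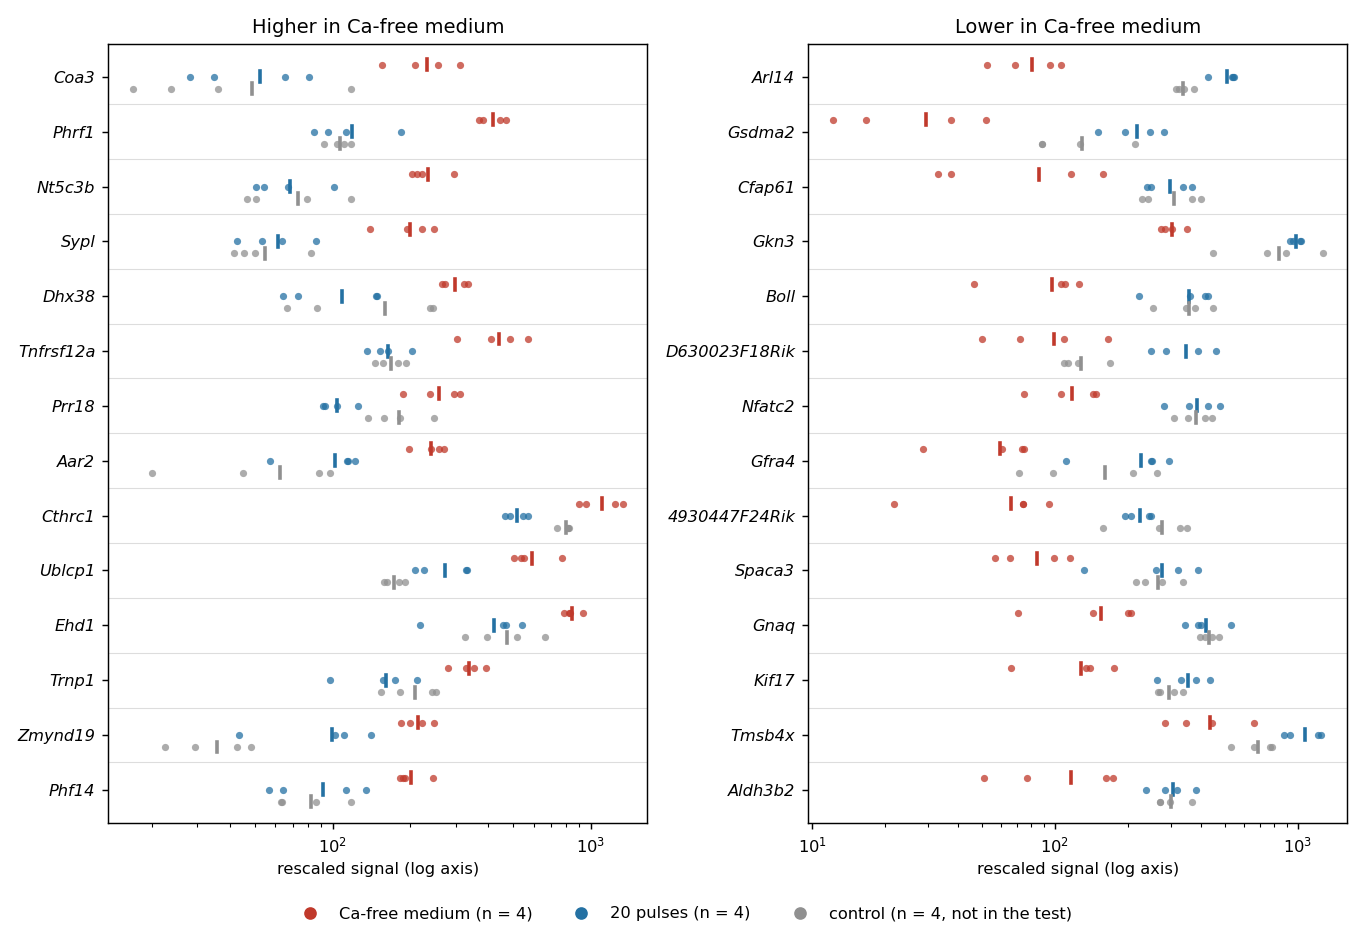
Signal of the 14 genes with the largest increases (left) and the 14 with the largest decreases (right) called under all 4 scalings, on a log axis of rescaled array signal. Points are single arrays and vertical bars group means (red, Ca-free medium; blue, 20 pulses; grey, control, which was not in the test; n = 4 each). In every row the red and blue points do not overlap, as the choice of genes required, from Arl14 at 80.6 against 512.5 to Coa3 at 233 against 52.4.

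The stretch before the start site is shown for 2 of the decreased genes, Arl14 because it changed most and Kif17 because it holds the letters of the element bound by CREB, a factor that answers to cAMP and Ca2+. Both are 250 bases from RefSeq (GRCm38.p6), ending at the base before the first listed start. Arl14 lies at chr3:69222169-69222418 on the plus strand and Kif17 at chr4:138262001-138262250 on the plus strand. Capitals mark a TATAAA and a GATAAG in Arl14, and in Kif17 a TGACGTCA (the CREB element) and a CATTCC, the reverse complement of the TEAD motif GGAATG.
Arl14: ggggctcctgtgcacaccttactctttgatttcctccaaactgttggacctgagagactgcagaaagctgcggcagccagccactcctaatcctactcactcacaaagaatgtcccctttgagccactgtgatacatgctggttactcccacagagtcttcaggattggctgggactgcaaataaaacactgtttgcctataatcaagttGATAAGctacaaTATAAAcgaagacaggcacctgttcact
Kif17: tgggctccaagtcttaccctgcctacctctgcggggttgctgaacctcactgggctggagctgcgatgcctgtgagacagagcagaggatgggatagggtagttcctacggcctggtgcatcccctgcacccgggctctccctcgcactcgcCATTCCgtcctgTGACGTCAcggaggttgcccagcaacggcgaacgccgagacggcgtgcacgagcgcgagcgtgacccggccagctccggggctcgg
Motifs were searched on both strands from 250 bases before to 50 after the first listed start, and no motif searched is contained in another. Promoters were found for 81 of the 95 genes higher under all 4 scalings and not also lower, for 262 of the 316 lower ones, and for 10780 of the 13359 genes tested. TGACGTCA was in 6 (7.41%) of the higher, 7 (2.67%) of the lower and 2.99% of all. TATAAA was in 12.3%, 9.54% and 7.93%, and GATAAG in 4.94%, 4.96% and 5.43%. GGAATG was in 2 (2.47%) of the higher, 35 (13.4%) of the lower and 12.2% of all, and the AP-2 motif GCCNNNGGC in 28.4%, 25.2% and 24.0%. The median GC content was 59.7%, 59.8% and 60%. These shares describe letters in the windows and were not tested.

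Among the trophectoderm genes called in both the main scaling and quantile normalization, more were lower than higher in Ca-free medium. By this count 5 of 26 tested genes (19.2%) were lower and 1 was higher, beside 3.59% lower and 4.36% higher over all genes. Under all 4 scalings these were 2 and 1, beside 1.26% and 0.322%. The split followed the scaling, as it did over all genes. The main scaling alone gave 7 lower (26.9%) and 4 higher (15.4%), beside 18.3% and 11.1% over all genes. Median scaling gave 2 lower and 12 higher, where 257 of all 13359 genes were lower and 5028 higher. Lower in both the main scaling and quantile normalization were Gata2, Tfap2a, Eomes, the receptor Fgfr2 and the amino acid transporter Slc6a14, and the higher one was Krt7. With any 1 array left out, 3 or 4 were lower and 1 higher, while the count over all genes moved between 197 and 504 lower. The list's median change was -0.12 (main) and -0.16 (quantile), beside -0.11 and -0.01 over all genes.

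Gata2, a GATA factor of trophoblast, read 497, 321, 323 and 402 on the Ca-free arrays and 741, 799, 682 and 723 after 20 pulses. All Ca-free values lay below all pulses values, and the control mean was 702.5 ± 145. The decrease was 1.86-fold (log2 change -0.90, SE 0.131, adjusted p = 0.00302), and the second Gata2 probe set, at 397 ± 64.0 against 696.5 ± 37.4, fell by 0.78 (adjusted p = 0.00303). Both probe sets were called under all 4 scalings. At least 2 probe sets so called, with none called the opposite way, were found for 7 genes of the lower set and none of the higher set. Some of the 7 also had probe sets that were not called. Tfap2a, the AP-2 alpha factor, read 2820, 1227, 2243 and 1377 against 3483, 4159, 3270 and 3397, 1.95-fold lower (log2 change -0.96, SE 0.214, adjusted p = 0.0095). The Ca-free arrays spread widely yet stayed below every pulses array. The other two Tfap2a probe sets were also lower, by -0.53 (adjusted p = 0.0273) and -0.42 (adjusted p = 0.0278). Eomes, a T-box factor, read 2492, 2043, 2225 and 2375 against 4035, 2987, 4218 and 3047 (log2 change -0.62, SE 0.116, adjusted p = 0.00513). It was 3725 ± 301 in the controls and no longer passed under median scaling (-0.25). A second Eomes probe set was lower by -0.31 (adjusted p = 0.0421).

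Krt7, a keratin of simple epithelia, went the other way, at 588, 534, 473 and 683 in Ca-free medium against 303, 373, 349 and 302 after 20 pulses. The 1.65-fold increase (log2 change 0.72, SE 0.123, adjusted p = 0.00413) was called under all 4 scalings. The bright keratins Krt8 (0.08, adjusted p = 0.181) and Krt18 (-0.0047, adjusted p = 0.95) did not pass. Their sign followed the scaling. Both passed as lower after quantile normalization (Krt8 -0.12, adjusted p = 0.0226, and Krt18 -0.20, adjusted p = 0.0205) and as higher with median scaling (0.46 and 0.37). Cdx2 read 4528, 5579, 4904 and 4915 against 4823, 4845, 4811 and 4670 (log2 change 0.05, adjusted p = 0.545), and its groups overlapped. Gata3 read 2212, 2578, 2732 and 2245 against 2208, 1619, 2185 and 1987 (log2 change 0.29, adjusted p = 0.0586).

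The epiblast factors Nanog and Sox2 passed neither in the main scaling nor after quantile normalization. Nanog read 4407, 5955, 5354 and 3884 against 4613, 5376, 4532 and 4817 (log2 change 0.003, adjusted p = 0.986). Sox2 read 2687, 3670, 3706 and 2427 against 3068, 3809, 4091 and 3357 (log2 change -0.21, adjusted p = 0.254). In both genes Ca-free arrays 1 and 4 were lower than arrays 2 and 3, which is also how these arrays divided on the second principal component. Pou5f1 read 6206, 5750, 5350 and 6502 against 4961, 5163, 4872 and 5172 and passed in the main scaling (log2 change 0.23, adjusted p = 0.0206). It did not pass after quantile normalization (0.06, adjusted p = 0.508) and took the opposite sign on the hybridization controls (-0.13). The call was also lost when Ca-free array 1 or 4 or pulses array 1 or 3 was left out. Of 27 tested epiblast and pluripotency genes, Tet2 (-0.57), which oxidises methylated cytosine, and Tdgf1 (-0.33), a Nodal co-receptor, were lower in both scalings and Fbxo15 (0.31) was higher. These shares of 7.41% and 3.70% stood beside 3.59% and 4.36% over all genes, and with any 1 array left out 0 to 3 were lower and 0 to 1 higher.

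In primitive endoderm, 3 of 23 tested genes were lower in both scalings and none higher, beside 3.59% and 4.36% over all genes, and 1 to 3 were lower with any 1 array left out. Sox17, a factor of the primitive endoderm, was among them. It read 902, 412, 446 and 876 in Ca-free medium and 1282, 1257, 1273 and 1345 after 20 pulses, a 2.03-fold decrease (log2 change -1.02, SE 0.219, adjusted p = 0.00856). The control arrays, with a mean of 630 ± 72.2, lay within the range of the Ca-free arrays, and the pulses arrays stood above both. The second Sox17 probe set fell by 0.71 (adjusted p = 0.00965). The size of the change depended on which Ca-free arrays were used, at -0.52 with arrays 1 and 4 alone and -1.52 with arrays 2 and 3 alone, each still called. Lamb1, a laminin chain of the basement membrane, was at 1867 ± 210 against 2572 ± 140 (log2 change -0.46, adjusted p = 0.00538), and Serpinh1, a collagen chaperone, at 401 ± 9.64 against 594 ± 63.0 (-0.53, adjusted p = 0.00517). Gata6 read 5225, 4339, 4080 and 5360 against 4793, 4500, 4459 and 4320 (log2 change 0.06, adjusted p = 0.593). Gata4 was dim, at 126.5 ± 22.1 against 173 ± 13.1 (-0.38, adjusted p = 0.0747). Neither GATA factor passed. The counts of this list also followed the scaling. The main scaling alone gave 6 lower (26.1%) and 2 higher (8.70%), beside 18.3% and 11.1% over all genes. Median scaling gave 1 lower and 5 higher, where 257 of all 13359 genes were lower and 5028 higher.

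**Figure D3:**
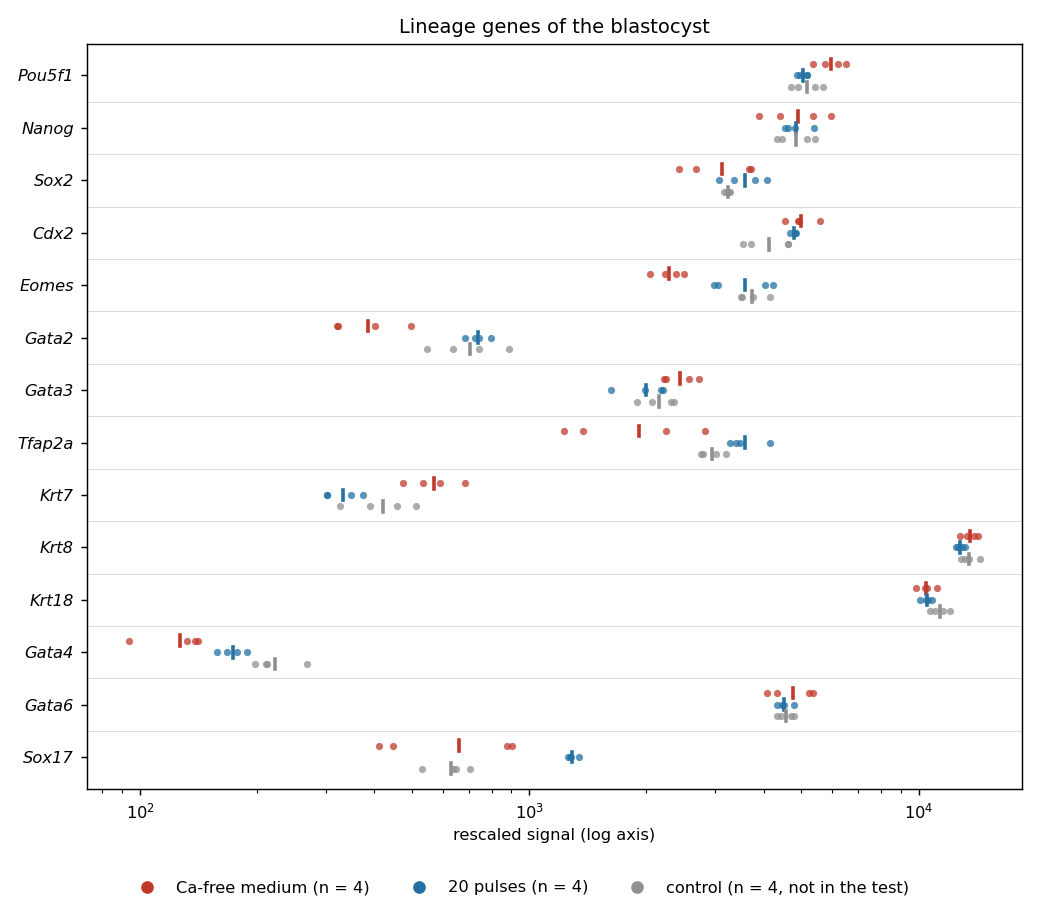
Signal of 14 lineage genes of the blastocyst on a log axis of rescaled array signal, 1 row per gene. Points are single arrays and vertical bars group means (red, Ca-free medium; blue, 20 pulses; grey, control, not in the test; n = 4 each). Gata2 (386 against 736), Tfap2a (1917 against 3577), Eomes (2284 against 3572), Sox17 (659 against 1289) and Gata4 (126.5 against 173) have every red point left of every blue one. Krt7 (570 against 332), Pou5f1 (5952 against 5042) and Gata3 (2442 against 2000) are the reverse. Gata4 and Gata3 did not pass in the main scaling. Nanog, Sox2, Cdx2, Gata6, Krt8 and Krt18 overlap.

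Growth signalling genes called in both scalings were 4 receptors and Dusp6 on the lower side and 1 receptor on the higher side. Of 39 tested genes of FGF, EGF and other growth signalling, 5 (12.8%) were lower in both scalings and 1 higher, beside 3.59% and 4.36% over all genes, and with any 1 array left out 2 to 4 were lower. The main scaling alone gave 10 lower (25.6%) and 5 higher (12.8%), beside 18.3% and 11.1% over all genes. Median scaling gave 1 lower and 10 higher, where 257 of all 13359 genes were lower and 5028 higher. Fgfr1 read 1041, 989, 1072 and 1023 in Ca-free medium and 1312, 1351, 1350 and 1342 after 20 pulses (log2 change -0.37, adjusted p = 0.00553). Both groups were tight and did not overlap, and the control mean of 1038 was at the level of Ca-free medium. Fgfr2, the trophectoderm receptor of FGF4, was at 957 ± 55.0 against 1204 ± 91.2 (-0.32), and Egfr at 618 ± 34.0 against 884 ± 121 (-0.49). Lifr, the receptor of leukaemia inhibitory factor, read 120, 132, 181 and 134 against 329, 265, 320 and 286 and was the only gene of the list called under all 4 scalings (-0.94, adjusted p = 0.00302). Dusp6, a phosphatase that is both a target and an inhibitor of ERK signalling, was at 520 ± 152 against 861 ± 60.1 (-0.73, adjusted p = 0.00976). Acvr2b, an activin receptor, was higher (0.40, adjusted p = 0.014).

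In the Hippo pathway, which restricts the trophectoderm programme to outer cells through YAP and its TEAD partners, 2 of 21 tested genes (9.52%) were lower and 1 (4.76%) higher in both scalings. Over all genes these shares were 3.59% and 4.36%, and with any 1 array left out 1 to 2 of the list were lower and 0 to 1 higher. Vgll4, which competes with YAP for TEAD, read 348, 437, 490 and 355 against 788, 711, 744 and 647 (log2 change -0.79, SE 0.12, adjusted p = 0.00314). Amotl1, an angiomotin, read 154, 177, 176 and 220 against 497, 450, 328 and 247 (-0.91, adjusted p = 0.0077), while its second probe set (-0.27, adjusted p = 0.161) did not pass. Both stood in the controls near the pulses level, at 685.5 and 360. Wwc1 (0.28), an activator of the Hippo kinases, was higher.

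Among 28 tested genes of tight junctions and cavitation, the fluid uptake that opens the blastocoel, 2 aquaporins (7.14%) were lower in both scalings and none was higher, beside 3.59% and 4.36% over all genes. Aqp8 read 482, 394, 441 and 508 against 852, 910, 850 and 864 after 20 pulses (log2 change -0.89, SE 0.095, adjusted p = 0.00158). The gap between the groups was wider than the range within either, and the control mean was 748 ± 65.3. Aqp3 read 2649, 2950, 2689 and 2583 against 3314, 3178, 3293 and 3140 (-0.25, adjusted p = 0.0146). Of 27 genes of Ca2+-dependent adhesion, the desmosomal cadherins Dsc2 (-0.36) and Dsg2 (-0.30) were lower and Nectin2 (0.39) higher in both scalings, shares of 7.41% and 3.70%. The sequences before the starts of Krt7, Aqp8 and Vgll4 are shown because these genes of the outer epithelium and its TEAD regulation differed under all 4 scalings. Krt7 lies at chr15:101412153-101412402 on the plus strand, Aqp8 at chr7:123462044-123462293 on the plus strand and Vgll4 at chr6:114969204-114969453 on the minus strand (RefSeq, GRCm38.p6, 250 bases). Capitals mark 2 AP-2 motifs in Krt7 and a GGAATG each in Aqp8 and Vgll4.
Krt7: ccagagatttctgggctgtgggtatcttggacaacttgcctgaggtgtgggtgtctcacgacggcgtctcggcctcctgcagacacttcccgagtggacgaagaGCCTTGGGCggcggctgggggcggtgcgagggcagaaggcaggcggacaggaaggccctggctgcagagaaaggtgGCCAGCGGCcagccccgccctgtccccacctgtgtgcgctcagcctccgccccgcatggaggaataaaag
Aqp8: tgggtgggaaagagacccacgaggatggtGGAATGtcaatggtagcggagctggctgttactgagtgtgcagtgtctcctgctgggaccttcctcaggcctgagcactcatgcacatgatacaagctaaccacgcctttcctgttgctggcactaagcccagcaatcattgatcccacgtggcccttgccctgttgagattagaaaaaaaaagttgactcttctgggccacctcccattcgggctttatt
Vgll4: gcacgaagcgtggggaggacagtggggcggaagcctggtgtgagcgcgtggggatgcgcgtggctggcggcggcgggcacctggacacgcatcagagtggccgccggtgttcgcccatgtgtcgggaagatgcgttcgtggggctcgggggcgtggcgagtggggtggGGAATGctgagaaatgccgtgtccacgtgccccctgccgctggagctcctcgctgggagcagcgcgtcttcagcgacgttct

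Few of the genes that move and read Ca2+ were called in both scalings, as was also the case over all genes. Of 38 tested pumps, store proteins and entry channels, 2 (5.26%) were higher in both scalings and none lower, beside 4.36% and 3.59% over all genes. Letm1, an ion exchanger of the inner mitochondrial membrane, was at 859 ± 57.9 against 572.5 ± 61.9 (log2 change 0.56, adjusted p = 0.00434), and Pdia3, a disulfide isomerase of the endoplasmic reticulum, at 1405 ± 134.5 against 1005 ± 52.3 (0.47, adjusted p = 0.00489). Of 34 genes for calmodulin, CaM kinases and calcineurin with its targets, Nfatc2 alone (2.94%) was called in both, as lower. Immediate early genes, 26 tested, held 2 lower genes (7.69%; Dusp6 and Jund, -0.37) and none higher. Each of these 3 lists thus held 1 or 2 genes called in both scalings. The main scaling alone called more. It gave 6 higher and 4 lower among the pumps, store proteins and entry channels. Of the calmodulin, CaM kinase and calcineurin list 9 of 34 were lower, and of the immediate early genes 4 of 26, with none higher in either. Over all genes 11.1% were higher and 18.3% lower in this scaling. Median scaling gave 13, 5 and 7 higher in the 3 lists, and 3 lower in the calmodulin list only.

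Actin and its regulators differed in both directions, with 5 of 46 (10.9%) lower and 3 (6.52%) higher in both scalings, beside 3.59% and 4.36% over all genes. In the main scaling alone 7 (15.2%) were lower and 20 (43.5%) higher, beside 18.3% and 11.1% over all genes. The list was bright, with a median signal of 2918 beside 459 over all genes, and bright probe sets moved up in this scaling. Besides Tmsb4x, Msn (moesin, -0.59), Wasl (N-WASP, -0.54), Lcp1 (plastin, -0.47) and Actn4 (-0.17) were lower in both scalings. Tpm1 (tropomyosin, 0.54), Rhoa (0.35) and Pfn1 (profilin, 0.34) were higher in both. Rhoa was tight in both groups, at 9885, 9402, 9313 and 9487 against 7341, 7625, 7505 and 7455. Its change was 0.35 (adjusted p = 0.0021) in the main scaling and 0.18 after quantile normalization.

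Of the lists with at least 20 tested genes, mitochondrial ribosomal proteins had the highest share of genes called higher in both the main scaling and quantile normalization. Of 76, 18 (23.7%) were higher in both scalings and 1 lower, beside 4.36% and 3.59% over all genes. In the main scaling alone their share of 46.1% was below those of cytosolic ribosomal proteins (81.8%) and the proteasome (68.2%). Under all 4 scalings 2 of the 76 (2.63%) were higher and none lower, beside 0.322% and 1.26% over all genes. With any 1 array left out 8 to 17 were higher, while the count over all genes moved between 259 and 510. The list's median change was 0.22 (main) and 0.13 (quantile). Its median signal was 2661, beside 459 over all genes. Median scaling gave 73 higher and none lower, where 5028 of all 13359 genes were higher and 257 lower. The hybridization controls gave 2 higher and 24 lower, where 43 of all genes were higher and 9135 lower. Mrpl33 read 6705, 5493, 5171 and 6318 in Ca-free medium against 2452, 2560, 3035 and 3331 after 20 pulses, 2.08-fold higher (log2 change 1.05, SE 0.107, adjusted p = 0.00149). A dim second Mrpl33 probe set, at 92.8 to 124 against 124 to 210, was called lower (-0.54, adjusted p = 0.0341). Mrpl32 read 2680, 3247, 3124 and 2839 against 1816, 1748, 2048 and 2149 (log2 change 0.61, adjusted p = 0.00284). The lower member was Mrpl28, at 2778 ± 93.5 against 4170 ± 524 (-0.57, adjusted p = 0.003). In the 44 cytosolic ribosomal proteins, which are brighter, 36 were higher in the main scaling (11.1% over all genes) but 2 (Rps2, 0.56, and Rpl37a, 0.44) in both, so that list followed the scaling. The 44 proteasome genes went from 30 to 1 (Psmb1, 0.45) in the same way.

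Ribosome biogenesis factors, which process rRNA and assemble ribosomal subunits in the nucleolus, held 17 higher genes of 78 (21.8%) in both scalings and no lower one, beside 4.36% higher and 3.59% lower over all genes. Leaving out any 1 array left 6 to 13 higher. This list was also bright, with a median signal of 2566 beside 459 over all genes, and its split followed the scaling. Median scaling gave 70 higher and none lower, and the hybridization controls none higher and 30 lower. Bysl, a factor of the small subunit, read 3287, 3323, 2725 and 3103 against 1951, 2169, 2150 and 2263 (log2 change 0.53, adjusted p = 0.00302). Wdr12, of the PeBoW complex of the large subunit, read 1811, 2205, 2204 and 1951 against 1216, 1560, 1441 and 1467 (0.52, adjusted p = 0.0051), and its partner Pes1 changed by 0.43. Fbl, the methyltransferase fibrillarin, changed by 0.45. Each change was 0.29 or more in the main scaling, and none of the 17 was called under all 4 scalings, where 0.322% of all genes were higher.

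RNA polymerase II, Mediator and the general factors held 13 higher genes of 77 (16.9%) and 1 lower (1.30%) in both scalings, beside 4.36% and 3.59% over all genes. With any 1 array left out 6 to 13 were higher. Median scaling gave 54 higher and none lower, and the hybridization controls 1 higher and 32 lower. Med29, a subunit of Mediator, read 563, 520, 558 and 612 against 306.5, 236, 307 and 290 and was called under all 4 scalings (log2 change 0.91, SE 0.108, adjusted p = 0.00191). Its other two probe sets (0.07 and -0.19) did not pass. Polr2h, a small subunit shared by the RNA polymerases, read 3711, 3504, 3364 and 3615 against 2268, 2332, 2558 and 2515 (0.55, adjusted p = 0.00191), and Polr2a, the largest subunit, changed by 0.39. The lower member was Taf2 (-0.26). The median change of the list was 0.12 in both scalings, beside -0.11 and -0.01 over all genes.

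Of 22 sterol synthesis genes, 4 (18.2%) were higher and 1 (4.55%) lower in both scalings, beside 4.36% and 3.59% over all genes. Dhcr7, the last enzyme of cholesterol synthesis, read 2306, 1686, 1800 and 2634 in Ca-free medium and 867, 1193, 1180 and 1171 after 20 pulses. The groups did not overlap, and the control mean of 1395 ± 62.1 lay between them. Its change was 0.90 (SE 0.145, adjusted p = 0.00353). Fdft1 (squalene synthase, 0.40), Msmo1 (0.32) and Scap (0.31), which escorts the SREBP factors, were also higher. Srebf2, the SREBP factor that drives the pathway, read 238, 130, 177 and 141 against 362, 395, 314.5 and 262 (log2 change -0.86, adjusted p = 0.00728) on the brighter of 2 probe sets, and the other (-0.25, adjusted p = 0.301) did not pass. With any 1 array left out, 1 to 3 genes of the list were higher. Median scaling gave 14 higher and 1 lower, and the hybridization controls 1 higher and 12 lower.

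**Figure D4:**
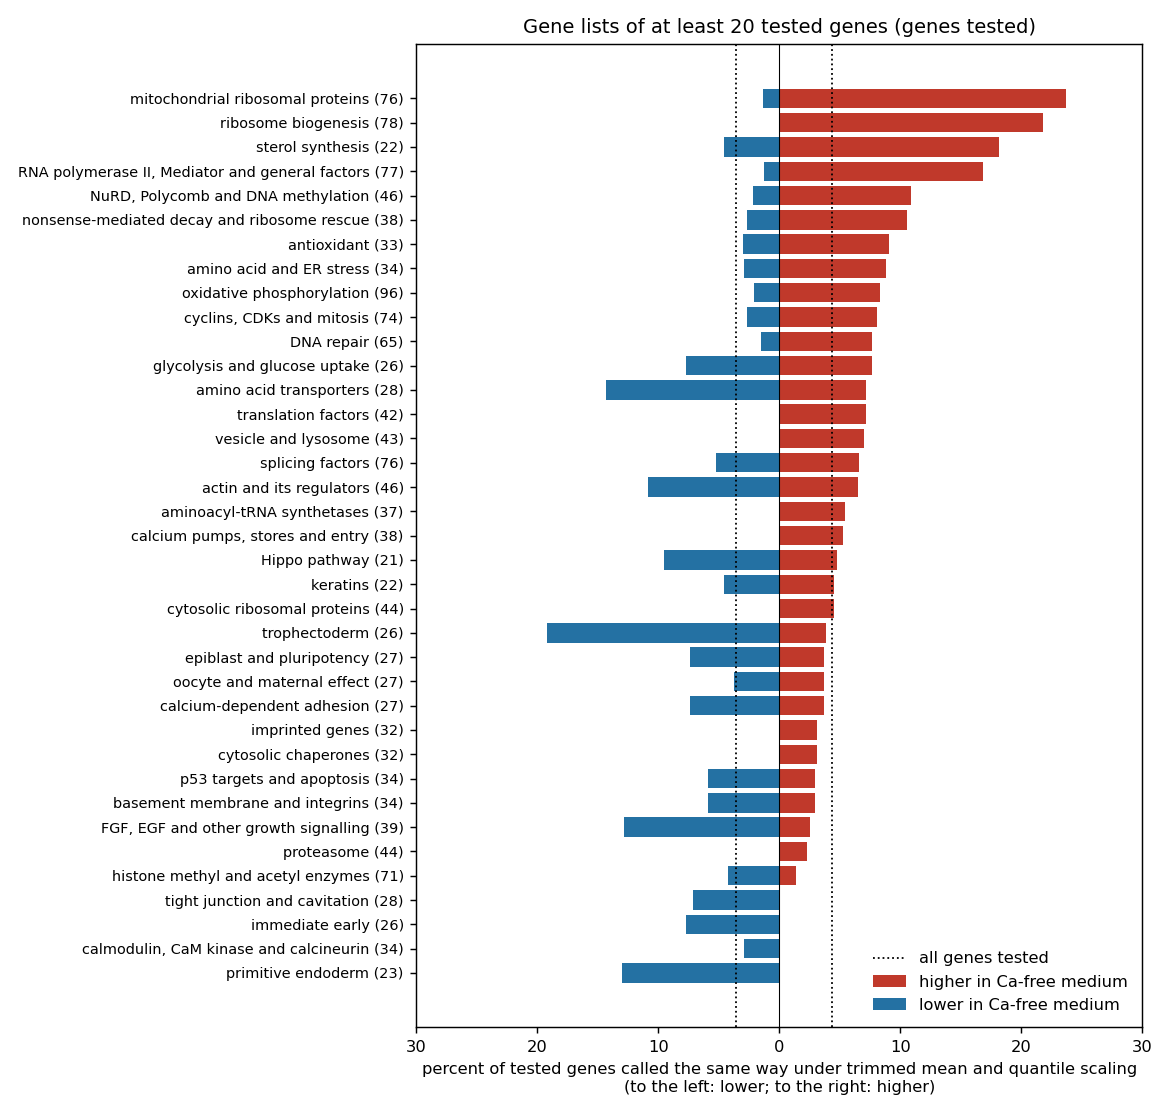
Share of tested genes called the same way under trimmed mean and quantile scaling (horizontal axis, percent; red to the right, higher in Ca-free medium; blue to the left, lower), for the lists with at least 20 tested genes, whose number stands in brackets. Dotted lines are the shares over all 13359 genes, 4.36% higher and 3.59% lower. Mitochondrial ribosomal proteins (23.7%) and ribosome biogenesis (21.8%) reach farthest right and trophectoderm (19.2%) farthest left.

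Further genes were called under all 4 scalings. Tcl1, an AKT co-activator known from the oocyte and early embryo, read 375, 276, 518 and 337 against 1074, 827, 936 and 755.5 (log2 change -1.21, adjusted p = 0.00255). Hdac11, a histone deacetylase, was at 484 ± 132 against 984 ± 219 (-0.98), and Ptbp1, a splicing repressor, at 1390 to 1583 against 1960 to 2797 (-0.66) on 1 probe set, while the other two (-0.31 and 0.10) did not pass. Malat1, a nuclear long non-coding RNA, was lower on 2 probe sets under all 4 scalings (-0.66 and -0.85) and on 4 of 7 in the main scaling. Kcnh3, a potassium channel (-0.76 and -0.70), and Tpx2, a spindle assembly factor (-0.71 and -0.69), were each lower on 2 of 4 probe sets. The brightest Tpx2 probe set, at 2497 to 2740 against 2379 to 2626, did not pass (0.08). Gnas, an imprinted gene for the stimulatory G protein subunit, read 2354, 2459, 2201 and 2244 against 1465, 1528, 1480 and 1589 (log2 change 0.60, adjusted p = 0.00162), and a dim second probe set was called lower (-0.70). Krt72, a dim keratin, was lower (-1.32, adjusted p = 0.00674). Aars2, the mitochondrial alanyl-tRNA synthetase, was higher (0.85, adjusted p = 0.0195), a call lost without Ca-free array 1 or 4.

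Markers of cells that could accompany embryos were dim, and those that passed in the main scaling were lower in Ca-free medium. Of 15 tested markers of oviduct and uterine epithelium 6 were lower, of 9 for cumulus and granulosa cells 4, of 8 for blood and immune cells 4 and of 11 for fibroblasts and stroma 6, and none was higher, beside the 18.3% lower over all genes. In both scalings the counts lower were 0, 1 (Star, -0.67), 0 and 1 (Acta2, -0.60). Summed signals were 3201 to 3740 in Ca-free medium against 4664 to 5724 after 20 pulses for oviduct and uterus, 2524 to 2823 against 2855 to 3487 for cumulus, 1429 to 1506 against 1729 to 2165 for blood and 2196 to 2750.5 against 2932 to 3462 for fibroblasts. Median signals of these lists and the sperm list were 181 to 211, and in the sets of about equal size, ordered by signal, with median signals of 175 and 217 the median change of all probe sets in the main scaling was -0.34 and -0.31. In these 2 sets 807 of 2721 and 899 of 2722 probe sets were lower in the main scaling, a larger share than over all genes. The part of other cell types in the comparison was not tested.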

How the data were processed

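Total RNA of mouse blastocysts had been purified and turned into biotin-labelled cRNA by a small-sample assay, per the labels' protocols. The values deposited by the authors are linear intensity made with MAS5, per the submitters' processing notes. All arrays had the same 2% trimmed mean of 150.001, without log transformation, as tested on the table. Detection calls were not analysed here. Precision is limited by how many arrays there are.

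Each array was rescaled to a trimmed mean of 500 and 32 was added before log2 (9.6 and a minimum of 30.0 on the deposited scale). The 2 groups of 4 were fitted with limma 3.58.1 in R 4.3.3 (lmFit, eBayes with an intensity trend), Benjamini-Hochberg adjusted over 27216 probe sets. Quantile, median and hybridization control scaling, and the added values, filters and fits of the closing section, were alternatives. A platform table paired 34958 probe sets with 1 gene symbol, 932 with several and 9147 with none; 34754 symbols were matched to RefSeq by gene identifier. A gene in a list is its brightest tested probe set. No list was given a set test.

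Named genes were the 14 largest changes each way under all 4 scalings without overlap, with 1 symbol, a mean of at least 200 in the higher group and no other probe set called opposite. To these were added up to 6 genes each way with at least 2 such probe sets, 11 lineage genes, and up to 3 members of each list called under all 4 scalings. Other genes were named because they were called in both scalings of their list, and were chosen after their values were seen. The members and lists were chosen with earlier results of these data known. Correlations of the residuals between arrays with the same replicate number were -0.034, 0.0026, 0.039 and 0.095, so the numbers were not taken as pairs. Tested on simulated data for this comparison, the fit recovered 41.8%, 73.1% and 93.9% of 1.5-, 2- and 3-fold changes among 27216 probe sets, with 5 false calls. The simulated arrays had independent normal noise, 67, 67 and 66 changed probe sets, and no shift of whole arrays between the groups. The real arrays did differ by such shifts, so the 5 false calls do not measure the error of the calls above.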

Additional observations from a re-analysis of the deposited data

Results flagged for a closer look

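Of 140 groups of 4 arrays looked at, 6 held an array far from the other 3 by Dixon's ratio at its 95% critical value, and chance gives about 1 in 20. After 20 pulses, array 1 was low for Aar2 (57.2, the others 113 to 122) and for Dhcr7 (867, the others 1171 to 1193), array 4 was low for Arl14 (429, the others 534 to 544), and array 3 was low for the second probe set of Gata2 (641, the others 709.5 to 719). In Ca-free medium, array 4 was high for Phf14 (246, the others 183 to 191) and array 2 was high for Krt72 (116, the others 31.9 to 45.4). Each of these 6 changes was called in the main scaling with any 1 array left out.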

How the results depend on the processing

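The direction of most calls followed the scaling, so counts over all probe sets are limits of this comparison and not a measure of its size. Probe sets higher in Ca-free medium numbered 2520 in the main fit, 1411 after quantile normalization, 8550 with median scaling, 106 on the hybridization controls, 1635 with Ca-free arrays 2 and 3 only, 1517 without the intensity trend, 833 at an adjusted p under 0.01, 206 at 1.5-fold or more and 1742 to 2489 with an array left out. For probe sets lower in Ca-free medium these were 5671, 1170, 796 and 18905 under the 4 scalings, 3749 with Ca-free arrays 2 and 3 only, 2175 with a minimum signal of 300, 1472 at 0.01, 2474 at 1.5-fold and 3156 (without pulses array 1) to 5540 with an array left out. Under all 4 scalings, the 106 higher became 198 with Ca-free arrays 1 and 4 only, 53 with the minimum of 300, 161 with no filter, 33 at 0.01, 41 at 1.5-fold and 70 to 130 with an array left out. The 513 lower became 297, 323, 68 and 209 (minimum of 300, no filter, 0.01, 1.5-fold) and 213 to 498 with an array left out. Over all probe sets the median change of -0.16 became -0.012 after quantile normalization, 0.18 with median scaling, -0.49 on the hybridization controls, -0.0115 with the minimum of 300 and -0.17 to -0.15 with an array left out.

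With an array left out, the 3' to 5' difference was 0.20 to 0.25 for Actb and -0.86 to -0.59 for Gapdh, and that of 18S rRNA 0.63 to 0.77 and of the hybridization controls 0.33 to 0.42. With 7 arrays the exact permutation p of the first 2 rose to at most 0.0571 and 0.0857. On the hybridization controls the sign turned for Pou5f1 (-0.13), Nanog (-0.36), Cdx2 (-0.31), Gata6 (-0.30) and Krt8 (-0.29). It also turned for Krt8 after quantile normalization (-0.12) and for Krt18 with median scaling (0.37). The cause of these changes was not tested. A replicate block gave 2422 higher and 5263 lower, and 119 and 437 under all 4 scalings, and changed the call of none of the 66 named probe sets.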

Other observations

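Genes of the cell cycle and of protein synthesis were also called the same way in the main scaling and after quantile normalization. Of 74 cyclins, CDKs and mitosis genes, 6 were higher (8.11%) and 2 lower, beside 4.36% and 3.59% over all genes. Ube2c, which loads ubiquitin for the anaphase-promoting complex, read 3145, 3319, 3050 and 3415 in Ca-free medium and 2309, 2266, 2368 and 2244 after 20 pulses (log2 change 0.49, limma adjusted p = 0.0021). All Ca-free arrays lay above all pulses arrays. The phosphatase Cdc25c (0.55) and the mitotic kinase Nek2 (0.49) were also higher, while Cdk2 (-0.36) and Cdk9 (-0.34) were lower. Of 38 genes of nonsense-mediated decay and ribosome rescue, 4 were higher and 1 lower. The release factors Etf1 (eRF1, 0.50), at 5104 ± 397 against 3596 ± 365, and its partner Gspt1 (eRF3, 0.38) were both higher, and the decapping enzyme Dcp2 (-0.33) was lower. Of 65 DNA repair genes 5 were higher and 1 lower, with the mismatch repair gene Pms2 at 305 ± 83.4 against 156.5 ± 58.3 (0.87, adjusted p = 0.0238). The control mean of Pms2, 62.1, was below both groups, and its call did not hold in both scalings with every array left out in turn.

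Amino acid transporters differed both ways, with 4 of 28 lower (14.3%) and 2 higher (7.14%) in both scalings, beside 3.59% and 4.36% over all genes. The glycine transporter Slc6a9, which early embryos use to control their volume, read 405, 413, 438 and 351 in Ca-free medium against 693, 661, 554 and 563 after 20 pulses (log2 change -0.58, limma adjusted p = 0.00524). The taurine transporter Slc6a6 read 1064, 1459, 1382 and 1046 against 695, 747, 778 and 933 (0.62, adjusted p = 0.00726). Neither gene's groups overlapped. Slc38a1 (-0.44) and Slc38a7 (-0.31) were lower and Slc7a5 (0.53) was higher. With any 1 array left out, 0 to 4 of the list were lower. Oxidative phosphorylation genes, 96 tested, held 45 higher and 4 lower in the main scaling, beside 11.1% and 18.3% over all genes. In both scalings 8 were higher (8.33%), among them Ndufs5 (0.56), Ndufb10 (0.54) and Cox8a (0.52), and 2 lower (2.08%), Cox8c (-0.50) and Sdhd (-0.33). With any 1 array left out 1 to 9 were higher.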
